A study of Mus musculus with 6 samples.

Results

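The genes described here are those of the p53 stress response in microglia, the immune cells that reside in the brain: the tumor suppressor p53 (Trp53), its inhibitor Mdm2, its arrest target Cdkn1a, the growth arrest genes Gadd45a, Gadd45b and Gadd45g, the DNA damage kinases Atm and Atr, and the death genes Bax and Bbc3. They were chosen by name, 10 genes of the 26789 in the table, and all 10 were found by Ensembl identifier. Each library came from microglia of the rostral nucleus of the solitary tract (NST), the first taste relay of the brain, of C57Bl/6 mice at P15, with 6 littermates pooled per library and 3 litters per group. The dams of controls ate a control diet, and those of E3–E12 diet mice a low sodium diet from E3 to E12. The study's methods describe sorting with magnetic beads against CD11b and amplification of the RNA, whereas the labels describe laser microdissection and TruSeq libraries, so the isolation of the cells is uncertain.

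p53 is a transcription factor that cells make all the time and destroy nearly as fast, because Mdm2, itself a p53 target, marks it for degradation. Atm responds to double-strand breaks and Atr to stalled replication forks, and both phosphorylate proteins that free p53 from Mdm2. Freed p53 switches on Cdkn1a, which halts the cell cycle, and Bax and Bbc3, which open the mitochondrial route to cell death. Because p53 is controlled mainly at the protein level, its mRNA does not report its activity, and the mRNAs of its targets are the usual readout. The Gadd45 proteins bind the kinase Map3k4, Pcna and Cdk1, and their genes respond to damage, to cytokines and to NF-kappaB.

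Values are normalized counts as deposited, and the sum per library was 9671119, 17204618 and 11910787 in controls 1, 2 and 3 and 9407141, 11192984 and 14656956 in E3–E12 diet libraries 1, 2 and 3. Control 2 stood apart before any gene was considered. It listed 10640 genes at 0, against 3459 to 7135 in the other libraries, and 61 genes were at 0 in it while at 100 or more in each of the other 5 libraries, against 0 to 3 genes for any other library. A value of 0 is therefore given only as listed at 0.

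The libraries held microglial RNA. All 16 microglial markers were above 0 in every library, and Csf1r, the receptor that microglia need to survive and the most abundant of them, was at 48984, 280071 and 106427 in controls and at 53504, 108590.0 and 140889 in E3–E12 diet mice. Itgam, which encodes CD11b, was at 12271, 23771 and 23544 in controls and at 8307, 17963 and 34466 in E3–E12 diet mice. The summed level of the 16 markers was 118053, 580760 and 297616 in controls and 114666, 275965 and 378504 in E3–E12 diet mice, so control 1 and E3–E12 diet 1 were low and control 2 was high. In pooled cells, a change in the share of a cell type and a change in its RNA per cell cannot be told apart.

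Among the 10 genes, the E3–E12 diet libraries all lay above the controls for Cdkn1a and Gadd45b and all lay below them for Mdm2. The other 7 genes had overlapping libraries. Cdkn1a and Gadd45b stayed apart when the libraries were rescaled to the same total or quantile normalized, whereas Mdm2 overlapped under both. On the deposited scale, 2 of 10 genes did not overlap upward, against 2.99% of the 18007 genes tested, and 1 of 10 downward, against 2.91%. No difference passed the test. With limma on log2(normalized count + 1) and Benjamini-Hochberg adjustment over all genes tested, 0 of the 10 and 0 of the 18007 genes (0%) had an adjusted p under the study's threshold of 0.1; the adjusted p of each of the 10 was 0.999, and the smallest over all genes was 0.225. At an unadjusted p under 0.05 there were 171 genes higher (0.950%) and 156 lower (0.866%), none of the 10 among them. Genes were tested where their mean over the 6 libraries was at least 10, which all 10 genes met. Fold changes below are on the log2(normalized count + 1) scale, E3–E12 diet over control, with n = 3 per group, and the exact permutation test that goes with them is two-sided and cannot give a p below 0.1.

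**Figure D1:**
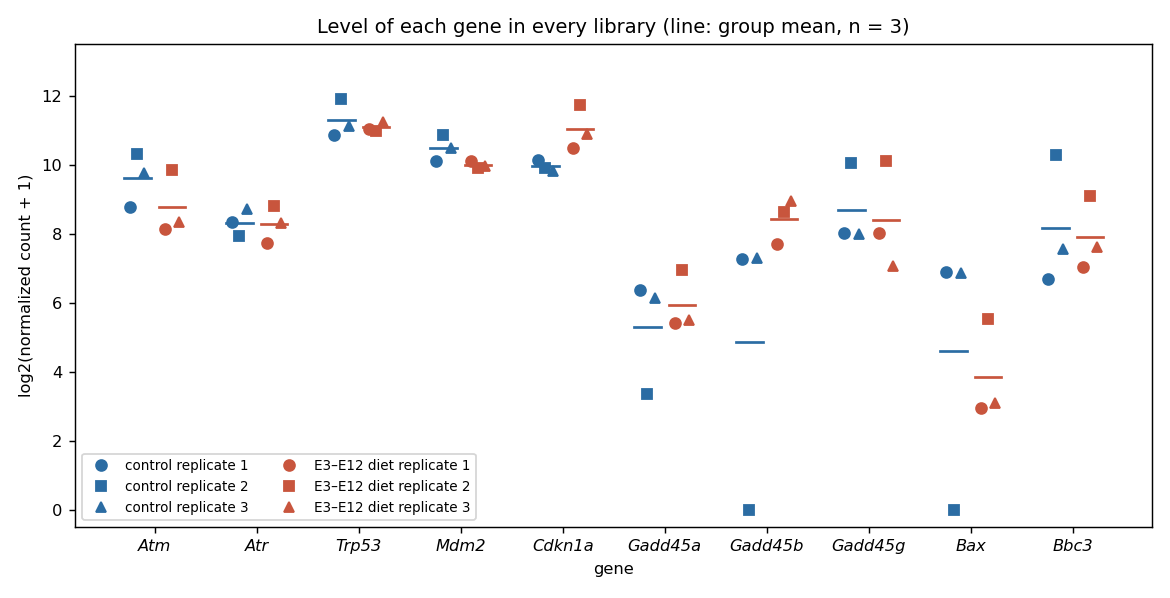
Level of each of the 10 genes in every library on a log2(normalized count + 1) axis, with controls in blue, E3–E12 diet mice in red, a symbol per replicate number and a line at each group mean (n = 3). Cdkn1a and Gadd45b lie higher in all E3–E12 diet libraries. Mdm2 lies lower in all of them on this scale, with the groups overlapping after rescaling to the same total or quantile normalization. Gadd45b and Bax are listed at 0 in control 2.

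The kinases come first in the pathway. Atm (chr9:53439149-53536740, minus strand) had 435, 1262 and 861 normalized counts in controls and 283, 919 and 326 in E3–E12 diet mice. E3–E12 diet 1 and 3 lay below all controls, while E3–E12 diet 2 lay among them, and the highest value was that of control 2. The log2 fold change of Atm was -0.83 ± 0.75 (SE), with a 95% interval from -2.61 to 0.96 and an exact permutation p of 0.3. When each library was left out, it ranged from -1.36 (without E3–E12 diet 2) to -0.48 (without control 2). Atr (chr9:95857597-95951781, plus strand) had 320.1, 241 and 418 normalized counts in controls and 211, 446 and 317 in E3–E12 diet mice. The E3–E12 diet libraries held both the lowest and the highest value of Atr, and its log2 fold change of -0.037 ± 0.59 (SE, exact permutation p = 0.9) was 0.082 when every library was rescaled to the same total.

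Trp53 itself (chr11:69580359-69591873, plus strand) was at 1841, 3809 and 2248 in controls and at 2104, 2000.1 and 2422 in E3–E12 diet mice. Apart from control 2, the 5 libraries lay close together, between 1841 and 2422, and the E3–E12 diet libraries fell inside the range of the controls. The log2 fold change of Trp53 was -0.21 ± 0.57 (SE, exact permutation p = 0.8). It was 0.092 without control 2 and 0.0030 after quantile normalization, so no direction can be given. Of the windows of 50 bases in Trp53 transcripts, 3.64% also occur in the pseudogene Trp53-ps, which could share some of its reads.

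Mdm2 (chr10:117688875-117710758, minus strand), the ubiquitin ligase that p53 induces against itself, was at 1108, 1858 and 1444 in controls and at 1099, 963 and 1001 in E3–E12 diet mice. Every E3–E12 diet library was below every control on this scale, but E3–E12 diet 1 and control 1 were nearly equal. With each library rescaled to the same total, in CPM, Mdm2 was at 114.5, 108 and 121 in controls and at 117, 86.0 and 68.3 in E3–E12 diet mice, so that E3–E12 diet 1 lay above controls 1 and 2 and the groups overlapped. The log2 fold change of Mdm2 was -0.50 ± 0.54 (SE), with a 95% interval from -1.79 to 0.80 and, as deposited, the smallest exact permutation p possible, 0.1. It was -0.31 without control 2, where the level was highest, -0.38 after rescaling to the same total and -0.35 after quantile normalization.

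Cdkn1a (chr17:29090976-29100727, plus strand) encodes p21, the inhibitor of cyclin-dependent kinases through which p53 stops the cell cycle. It was at 1124, 966 and 904 normalized counts in controls and at 1419.9, 3405 and 1878 in E3–E12 diet mice. On this scale the controls were close together, all E3–E12 diet libraries were above them, and E3–E12 diet 2 stood highest. In CPM the controls were wider apart, at 116, 56.2 and 75.9, and the E3–E12 diet libraries, at 151, 304 and 128, were still above them, with E3–E12 diet 3 close to control 1. Of the 50-base windows of Cdkn1a, 8.49% also occur in other genes, mainly AC167363.2. The E3–E12 diet mean was 2.24 times the control mean, and the log2 fold change was 1.07 ± 0.59 (SE), with a 95% interval from -0.35 to 2.49 and an exact permutation p of 0.1, the smallest possible. It was 0.72 to 1.35 over the fits that each left out a library, and 1.05 without control 2. Set against the p53 mRNA of the same library, Cdkn1a was at 0.611, 0.254 and 0.402 times the Trp53 value in controls and at 0.675, 1.70 and 0.776 times in E3–E12 diet mice, which do not overlap. The ratio of Mdm2 to Trp53 did overlap, at 0.602, 0.488 and 0.642 in controls and at 0.523, 0.481 and 0.413 in E3–E12 diet mice.

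Both Cdkn1a and Mdm2 are induced by p53, and their fold changes, neither past the test, had opposite signs, though only Cdkn1a stayed apart between the diets under both other scalings. Per library, the ratio of the Cdkn1a value to the Mdm2 value was 1.02, 0.520 and 0.626 in controls and 1.29, 3.54 and 1.88 in E3–E12 diet mice. These ratios need no scaling between libraries, and all of them were computed after the values of both genes were seen.

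Among the Gadd45 genes, Gadd45a (chr6:67035096-67037457, minus strand), the family's p53 target, was at 82.1, 9.18 and 69.7 in controls and at 41.2, 122 and 44.0 in E3–E12 diet mice. Control 2 was lowest and E3–E12 diet 2 highest, and the groups overlapped. Its log2 fold change of 0.66 ± 0.99 (SE, exact permutation p = 0.8) was -0.32 without control 2 and -0.059 after quantile normalization. Of its 50-base windows, 15.6% also occur in E230016M11Rik, so its counts are uncertain.

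Gadd45b (chr10:80930073-80932204, plus strand), which NF-kappaB and TGF-beta induce, was at 152, 0 and 156 in controls and at 209, 396 and 495 in E3–E12 diet mice. Controls 1 and 3 agreed closely, control 2 was listed at 0, and each E3–E12 diet library was above them. The log2 fold change of 3.58 ± 1.97 (SE, 95% interval from -1.13 to 8.30, exact permutation p = 0.1, the smallest possible) rests on that 0: without control 2 it was 1.16, still with all E3–E12 diet libraries above the controls. Gadd45b is among the genes that the study selected from these same libraries, so its direction here is no independent evidence.

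Gadd45g (chr13:51846678-51848468, plus strand) was at 259.7, 1055 and 254 in controls and at 257, 1099 and 131 in E3–E12 diet mice. Control 2 and E3–E12 diet 2 were both far above the rest, and the remaining 4 libraries lay between 131 and 259.7. The spread within each group was far larger than the difference between them, a log2 fold change of -0.30 ± 1.02 (SE, exact permutation p = 0.9) that was 0.38 without control 2.

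Of the death genes, Bax (chr7:45461697-45466898, minus strand), the pore protein of the outer mitochondrial membrane, was at 117, 0 and 116 in controls and at 6.73, 44.8 and 7.52 in E3–E12 diet mice. Controls 1 and 3 were above all E3–E12 diet libraries, but control 2 was listed at 0, so the groups overlapped. Of its 50-base windows, 8.51% also occur in Gm45808. The log2 fold change of Bax was -0.73 ± 1.96 (SE, exact permutation p = 0.8) with all libraries and -2.04 after quantile normalization. It was -3.02 without control 2 but 0.42 without control 1 and 0.41 without control 3, so its direction rests on single libraries, and with limma no gene had an adjusted p under 0.1 in any of these fits. Bbc3 (chr7:16308393-16318205, plus strand), which encodes the BH3-only protein Puma, was at 103, 1246 and 185 in controls and at 131, 549 and 194 in E3–E12 diet mice. Replicate 2 was high in both groups, and the log2 fold change of -0.26 ± 1.09 (SE, exact permutation p = 0.9) was 0.80 without control 2.

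**Figure D2:**
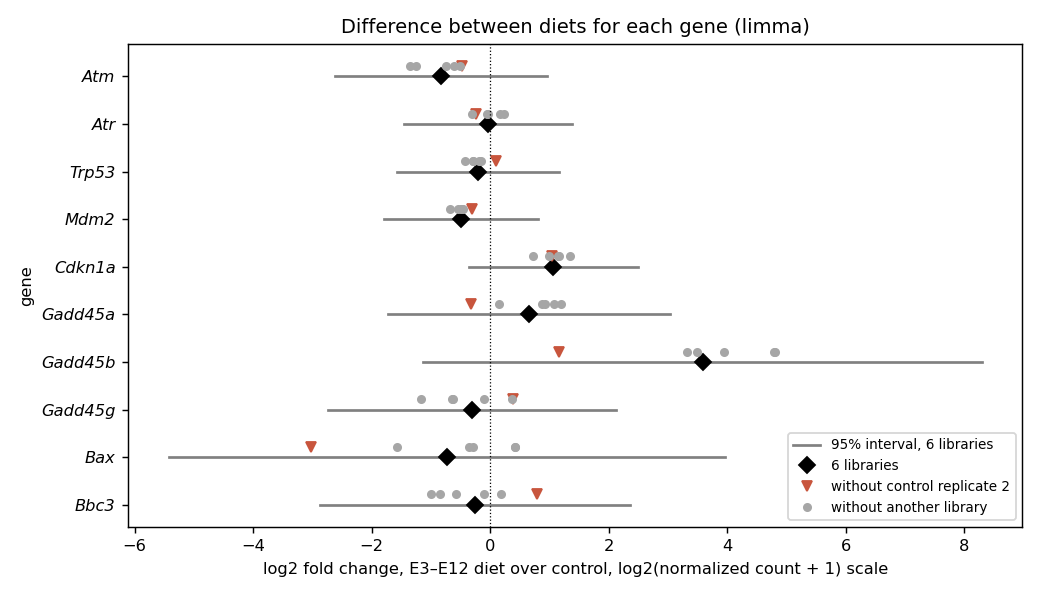
Log2 fold change of each gene, E3–E12 diet over control, on the log2(normalized count + 1) scale, with its 95% limma interval from 6 libraries and the values from fits that each left out a library. Intervals of all 10 genes include 0; Gadd45b moved from 3.58 to 1.16 and Bax from -0.73 to -3.02 without control 2.

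Divided by the length of their merged exons, the normalized counts gave an order of abundance over the 6 libraries of both diets. Trp53 was highest, with a mean of 594 per kb, followed by Cdkn1a at 455 and Gadd45g at 434 per kb. Mdm2 (245), Bbc3 (189) and Gadd45b (148) were intermediate per kb, and Atm (65.9), Gadd45a (34.8), Bax (30.9) and Atr (13.8) were lowest. The merged exons of Atr were the longest, at 23629 bases, against 1173 to 10338 bases for the other genes. The place of Atr in this order, in either group, depends on that length. Neighbors in this order overlapped in their libraries: Cdkn1a ranged from 254 to 958 per kb and Gadd45g from 112 to 937 per kb. The place of some genes depended on the group. The mean of Cdkn1a in controls, 281 per kb, was below those of Trp53 (651), Gadd45g (446) and Mdm2 (289). Its mean in E3–E12 diet mice, 629 per kb, was above those of Trp53 (538), Gadd45g (423) and Mdm2 (201). Gadd45b went from 64.4 per kb in controls, below Atm (82.5), to 231 in E3–E12 diet mice, above Mdm2. Bax went from 49.3 per kb in controls, above Gadd45a (30.4), to 12.5 in E3–E12 diet mice, below Atr (13.7).

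Of the 10 genes, the log2 fold change was above 0 in 3 and below 0 in 7, with a median of -0.23, and without control 2 it was above 0 in 5 with a median of -0.072. The median was -0.38 without E3–E12 diet 2 and 0.034 without E3–E12 diet 1, so its sign rests on single libraries. Over all 18007 genes tested the median was 0.087 and 54.4% were above 0.

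Promoter sequence is shown for the genes whose deposited values did not overlap between the diets, Cdkn1a, Mdm2 and Gadd45b, although none of them passed the test and Mdm2 overlapped after rescaling. All 10 genes matched RefSeq promoters of build GRCm38.p6, taken as the 250 bases before each start. Both strands were searched for the p53 half-site and the kappaB site, named here by name only, and for the AP-1 site TGANTCA, the CRE TGACGTCA and the TATA box TATAAA. These occur in 7.13%, 3.90%, 6.75%, 1.55% and 12.4% of the 32851 promoters in the table. A pair of p53 half-sites, at 73 to 64 and 51 to 42 bases before the start, was found in the first of the 2 Cdkn1a promoters (chr17:29090729-29090978, plus strand), and a single half-site, at 186 to 177 bases, in that of Mdm2 (chr10:117710759-117711008, minus strand). The Gadd45b promoter (chr10:80929841-80930090, plus strand) held a TATA box at 46 to 41 bases and no match to the other motifs. Capitals mark the matches, 5′ to 3′.
Cdkn1a: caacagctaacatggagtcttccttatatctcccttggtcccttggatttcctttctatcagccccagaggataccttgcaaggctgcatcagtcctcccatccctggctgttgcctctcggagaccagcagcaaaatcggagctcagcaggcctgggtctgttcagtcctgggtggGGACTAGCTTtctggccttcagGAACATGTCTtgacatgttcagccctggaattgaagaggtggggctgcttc
Mdm2: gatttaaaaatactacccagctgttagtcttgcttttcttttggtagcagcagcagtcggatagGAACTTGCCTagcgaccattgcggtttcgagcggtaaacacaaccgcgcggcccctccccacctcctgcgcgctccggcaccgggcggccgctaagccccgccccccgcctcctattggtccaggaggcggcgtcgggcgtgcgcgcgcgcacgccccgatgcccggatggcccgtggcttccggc
Gadd45b: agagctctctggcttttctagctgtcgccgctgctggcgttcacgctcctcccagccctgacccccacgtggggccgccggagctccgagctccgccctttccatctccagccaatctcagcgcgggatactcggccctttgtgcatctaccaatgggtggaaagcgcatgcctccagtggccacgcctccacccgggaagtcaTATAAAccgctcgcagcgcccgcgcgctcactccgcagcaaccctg
A single p53 half-site was also present for Trp53, Gadd45a and Bax, a kappaB site for Atr, 2 overlapping kappaB matches for the first of 3 Bbc3 promoters, a TATA box for Trp53 and Gadd45g, and none of the motifs for Atm. A match is a description of the letters only.

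Over the 7 lists of related genes described next, 134 genes were tested, of which 4 had all E3–E12 diet libraries above the controls and 6 had all below. Together they made up 7.46% against 5.90% of all genes tested, a share near that background. Rpl11, Rrm2b, Cycs and Nfkbia stayed apart under rescaling to the same total and under quantile normalization, Xrcc5 and Cdk1 only under the former, and Ppp1r13b, Rif1, Bad and Zfp36 under neither. The medians given for these lists also moved when each library was left out: from -0.22 (without control 1) to 0.20 (without E3–E12 diet 1) for the proteins that hold or free p53, from -0.22 (without E3–E12 diet 2) to 0.20 (without E3–E12 diet 1) for other p53 targets, and from -0.15 (without E3–E12 diet 2) to 0.14 (without control 3) for the damage sensors. For the inhibitors of cyclin-dependent kinases the range was -0.0012 (without E3–E12 diet 2) to 0.35 (without E3–E12 diet 3), and for the immediate early genes -0.76 (without E3–E12 diet 2) to 0.069 (without E3–E12 diet 1). The medians of the Gadd45 partners, 0.052 to 0.38, and of the BCL2 and caspase genes, 0.0043 to 0.39, stayed above 0 when a library was left out, and were lowest without E3–E12 diet 2 and highest without E3–E12 diet 1. Rescaling to the same total gave the damage sensors a median of 0.0072 and the other p53 targets 0.055, against 0.198 over all genes tested. Quantile normalization gave these lists -0.17 and -0.18, against -0.0034 over all genes tested.

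The proteins that hold or free p53 were examined first. Of 18 such genes 17 were tested, 9 with a log2 fold change above 0 and 8 below, with a median of 0.064; none passed the adjusted threshold. Rpl11, a ribosomal protein that binds and blocks Mdm2, was at 212, 718 and 245 in controls and at 2206, 786 and 1752 in E3–E12 diet mice. Its E3–E12 diet libraries were all above the controls, with a log2 fold change of 2.11 ± 0.76 (SE, limma adjusted p = 0.999), although 17.7% of its 50-base windows also occur in 10 other genes, mostly the pseudogene Gm10288. Ppp1r13b, which encodes the p53 cofactor Aspp1, was at 662, 531 and 610.3 in controls and at 663, 691 and 731 in E3–E12 diet mice, a log2 fold change of only 0.21 ± 0.52 (SE) without overlap. Ep300, the acetyltransferase that p53 recruits, had the highest mean in the list and was at 8247, 22815 and 10845 in controls and at 7193, 12810.1 and 16187 in E3–E12 diet mice, with overlap. Mdm4, the partner of Mdm2, was listed at 0 in 5 libraries and at 351 in E3–E12 diet 3; it was picked out after its values were seen.

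Other targets of p53 were examined beside Cdkn1a. Of 30 genes 28 were tested, 14 above 0 and 14 below, with a median log2 fold change of -0.00048, and none passed the adjusted threshold in limma. Rrm2b, the ribonucleotide reductase subunit that supplies nucleotides for repair, was at 413, 361 and 796 in controls and at 186, 119 and 142 in E3–E12 diet mice. Its E3–E12 diet libraries were all below the controls, with a log2 fold change of -1.74 ± 0.60 (SE, limma adjusted p = 0.999) that ranged from -1.96 to -1.39 when each library was left out. Of the 50-base windows of Rrm2b, 10.7% occur in other genes, and like Gadd45b it was selected by the study from these libraries. Btg2, an antiproliferative target and the highest of the list by mean, was at 1866, 10070.3 and 7664 in controls and at 1564, 5216 and 4069 in E3–E12 diet mice, with overlap.

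**Figure D3:**
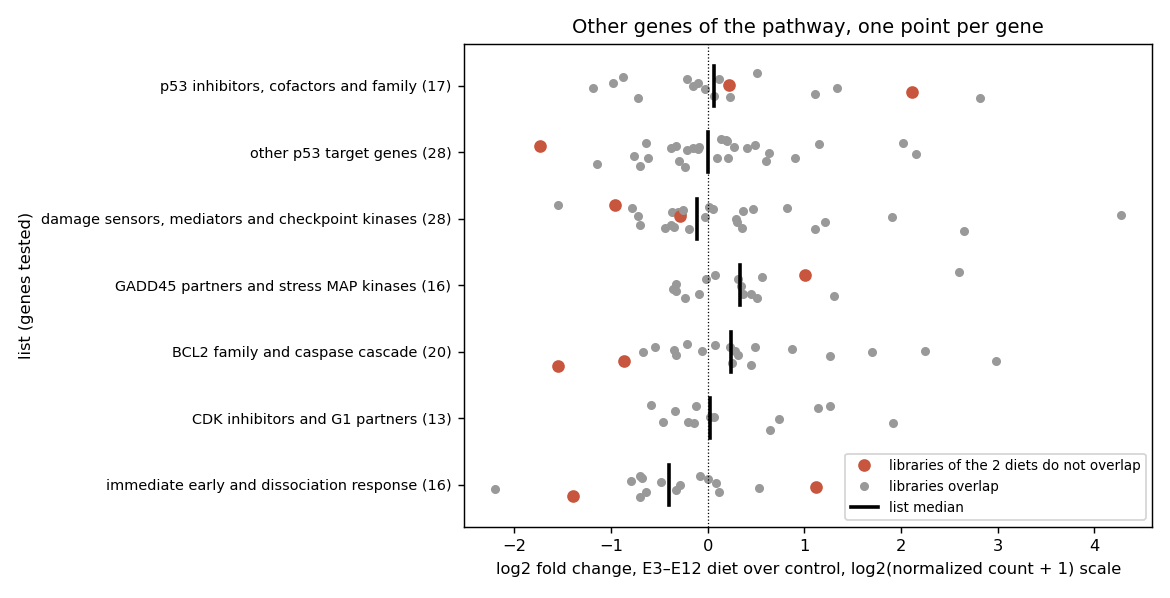
Log2 fold change of each tested gene of 7 lists around the p53 pathway, E3–E12 diet over control, on the log2(normalized count + 1) scale, with a point per gene, a bar at the list median and genes without overlap between the libraries of the diets in red. List medians lie between -0.41 and 0.33, and 10 genes (7.46%) do not overlap on the deposited scale, against 5.90% of all genes tested.

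Around the kinases, 28 damage sensors, mediators and checkpoint kinases were tested, 13 above 0 and 15 below. Their median log2 fold change was -0.11, and none passed the adjusted threshold in limma. Bod1l had the highest log2 fold change of this list (4.28, and 1.01 without control 2) and was selected by the study from these libraries. Xrcc5, the Ku80 subunit that binds broken ends, was at 144, 199 and 134 in controls and at 73.7, 55.1 and 127 in E3–E12 diet mice. Rif1, which steers repair toward end joining, was at 649.7, 623 and 728 in controls and at 543, 602 and 499.6 in E3–E12 diet mice. Both were lower without overlap, by log2 fold changes of -0.96 ± 0.60 and -0.28 ± 0.52 (SE). Mdc1, the scaffold at marked breaks and the highest of the list by mean, was at 1276, 5764 and 2349.6 in controls and at 1248, 1583 and 2031 in E3–E12 diet mice, with control 2 far above the others.

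Of the partners of the Gadd45 proteins and the stress MAP kinases, 16 genes were tested, 10 above 0 and 6 below, none past the adjusted threshold, with a median log2 fold change of 0.33. Cdk1, the mitotic kinase that Gadd45 proteins inhibit, was at 45.4, 70.2 and 57.2 in controls and at 128, 77.3 and 154 in E3–E12 diet mice. It was higher in all E3–E12 diet libraries, with a log2 fold change of 1.01 ± 0.58 (SE), and it is also a marker of cycling cells. Mapk14, the p38 kinase downstream of Map3k4 and the highest of the list by mean, was at 1438, 4433 and 3008 in controls and at 1087, 2685 and 3320.4 in E3–E12 diet mice, with overlap.

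Around Bax and Bbc3, 20 genes of the BCL2 family and the caspase cascade were tested, 12 above 0 and 8 below, none past the adjusted threshold, with a median log2 fold change of 0.24. Cycs, the cytochrome c released through the Bax pore, was at 149, 594 and 214 in controls and at 89.1, 79.5 and 104 in E3–E12 diet mice. Bad, a BH3-only death protein, was at 105, 504 and 116 in controls and at 104, 102 and 94.2 in E3–E12 diet mice. Both were lower in all E3–E12 diet libraries and highest in control 2: the log2 fold change of Cycs was -1.55 ± 0.70 (SE) and -0.98 without control 2, and that of Bad was -0.87 ± 0.76 (SE) and -0.14 without it. Cycs shares 26.1% of its 50-base windows with other genes and Bad 17.2%, with Gpr137, so both counts are uncertain. Mcl1, which restrains the death proteins and had the highest mean, was at 14522, 18664 and 6798 in controls and at 15229, 22066 and 33546 in E3–E12 diet mice. Its libraries overlapped on this scale and after quantile normalization, whereas all E3–E12 diet libraries were above the controls after rescaling to the same total.

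Beside Cdkn1a, the other inhibitors of cyclin-dependent kinases and the G1 genes showed no gene without overlap. Of 16 genes 13 were tested, 7 above 0 and 6 below, with a median log2 fold change of 0.019 and none past the adjusted threshold. Cdk6, the G1 kinase with the highest mean, was at 2361, 5622 and 3034 in controls and at 1769.5, 3403 and 3319 in E3–E12 diet mice, with overlap.

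Gadd45b and Btg2 also belong to the genes that handling of tissue can induce within minutes, so immediate early genes were set beside them. Of 16 such genes 5 were above 0 and 11 below, none past the adjusted threshold in limma, with a median log2 fold change of -0.41. Nfkbia, the inhibitor that NF-kappaB induces against itself, was at 2392, 1519 and 2284 in controls and at 3734, 4548 and 5034 in E3–E12 diet mice. Zfp36, which destabilizes cytokine mRNAs, was at 15393, 23123 and 36831 in controls and at 7034, 15108 and 6822 in E3–E12 diet mice. The libraries of the diets did not overlap for either gene, with log2 fold changes of 1.12 ± 0.55 and -1.39 ± 0.65 (SE), and the directions were opposite. Both genes, and Atf3 of the same list, were also selected by the study from these libraries. Atf3 overlapped on the deposited scale and was lower without overlap after rescaling to the same total and after quantile normalization; it is named after its values were seen. Egr1, the highest of the list by mean, was at 43581, 140565 and 57702 in controls and at 37113, 68345 and 77272 in E3–E12 diet mice, with overlap.

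Likeness of pattern across libraries was measured as the root mean square difference of centered log2 values over the 6 libraries. The genes closest to Trp53 were Gm3383 (0.057), Zfp282 (0.062) and Txlna (0.074), all highest in control 2. Those closest to Gadd45b were Myl6 (0.35), Cntfr (0.39) and Id3 (0.50), all listed at 0 in control 2, and Cntfr was also selected by the study from these libraries. Myl6 was at 289, 0 and 208 in controls and at 274, 547 and 445 in E3–E12 diet mice.

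Markers of other cell types differed between the same libraries. Control 2, where Gadd45b and Bax were listed at 0, had the lowest summed level of endothelial markers (6 genes, 4514 against 6211 to 11814 in the other libraries; highest gene Flt1), of mural cell and fibroblast markers (7 genes, 904 against 6210 to 16114; Rgs5) and of astrocyte markers (6 genes, 1731 against 4238 to 9119; Slc1a2). Single markers did not all follow these sums: control 2 was the lowest library for 4 of 6 endothelial, 6 of 7 mural and 5 of 6 astrocyte markers, whereas Cldn5 (1207) and Pecam1 (3154) were highest there and Slc1a3 (1420.1) was second only to E3–E12 diet 1. E3–E12 diet 2, where Cdkn1a and Gadd45a were highest, had the lowest summed level of choroid plexus and ependymal markers (5 genes, 89.4 against 565 to 39881; Ttr). In control 2, 3 of the 6 neuronal markers were listed at 0, and the summed level of the neuronal list was 2592, 1582 and 1228 in controls and 2877, 1183 and 1224 in E3–E12 diet mice (highest gene Map2). The sum in control 2 was mostly Map2, at 1486; control 2 was the lowest library for 4 of the 6 neuronal markers, and its mean log2 level of the list was 3.23 against 6.15 to 7.74 in the others. Border macrophages, the close relatives of microglia at vessels and meninges, had a summed level of 4644, 16878 and 6643 over 5 markers in controls and of 4192, 7159.6 and 8202 in E3–E12 diet mice, and Mrc1 was their most abundant gene. All 5 had a log2 fold change below 0 (median -0.50), 1 of them without overlap between the diets. Without control 2, 3 were above 0 (median 0.14). All 6 astrocyte markers were above 0 (median 0.89), and 4 were without control 2 (median 0.64). All 16 microglial markers were below 0 (median -0.26), and 13 were above 0 without control 2 (median 0.23). The median was 1.36 for endothelial, 1.09 for neuronal and 0.85 for mural and fibroblast markers, and -0.26, -0.25 and -0.13 without control 2. It was below 0 both ways for oligodendrocyte, choroid plexus and ependymal, and neutrophil and red cell markers, and above 0 both ways for cycling cells. None of these passed the adjusted threshold in limma. Oligodendrocyte markers (6 genes, highest Mbp) summed to 30716, 12410.3 and 3937 in controls and to 13596, 17041 and 4323 in E3–E12 diet mice. Markers of neutrophils and red cells (8 genes, highest S100a9) summed to 515, 1879 and 475 in controls and to 468, 321 and 487 in E3–E12 diet mice. The sum in control 2 was mostly the neutrophil genes S100a9 (1289) and S100a8 (573). The red cell genes Hba-a1 and Hba-a2 were listed at 0 in control 2 and in E3–E12 diet 2. The mean log2 level of the 6 tested markers was 5.99, 4.07 and 5.88 in controls. It was 5.03, 2.67 and 5.24 in E3–E12 diet mice, so E3–E12 diet 2 was the lowest library. Markers of cycling cells, which Cdkn1a restrains, summed over 6 genes to 4896, 5578 and 896 in controls and to 6613, 1600.1 and 1299.7 in E3–E12 diet mice, with Mki67 highest. The sum in control 2 was mostly Mki67, at 5068, and the mean log2 level of the list was lowest in that library, at 6.12 against 6.16 to 8.23 in the others. The part of these markers in the differences of Cdkn1a, Gadd45b, Mdm2 and Bax was not tested.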

How the data were processed

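Per the labels and the deposited table, the authors made normalized counts per gene for each library, a signal that is not whole reads. A step was fitted per library, from 0.538 to 1.98, so that the most values under 15 lay near its whole multiples. Of these low values, 56.6% to 75.6% lay within 0.1 of a whole multiple of the fitted step. The submitters' processing notes name FastQC, STAR, featureCounts, DESeq2 and build GRCm38. Why the table's name mentions surrogate variables is not given in the sources used here. Read length also differs between the study's methods and the labels. Gene symbols were matched for 26507 of 26789 genes. Positions and shared 50-base windows came from GENCODE annotation of GRCm38, and promoters from RefSeq.

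Genes with a mean of at least 10 were tested on log2(normalized count + 1) with limma 3.58.1 (lmFit, eBayes) in R 4.3.3, without a block. Exact permutation tests and summaries used Python 3.11.15. Alternatives changed the pseudocount, filter, scaling, prior and block, and left out each library. Members and lists were chosen with earlier results of these data known. The rule for named genes took all 10 members, up to 4 genes per pathway list whose libraries did not overlap, the highest gene of each pathway and marker list, and the 3 patterns closest to Trp53 and to Gadd45b; other genes named, such as Mdm4, Itgam, Cldn5, Pecam1, Slc1a3, S100a8, Hba-a1, Hba-a2, Atf3, Bod1l, Chek2 and Gdf15, are outside it.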

Additional observations from a re-analysis of the deposited data

How the results depend on the processing

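No gene passed the adjusted threshold in limma under any of the 14 alternatives run. Genes with an unadjusted p under 0.05 numbered 327, 491 after quantile normalization, and 276 to 551 when each library was left out. Atm, Mdm2, Cdkn1a and Gadd45b kept the sign of their log2 fold change under all 14, although the groups overlapped for Mdm2 after rescaling or quantile normalization. Rescaling to the same total shifted the median log2 fold change of all genes by 0.11 and gave Atr 0.082, below that shift. Quantile normalization gave Trp53 0.0030 and Gadd45a -0.059. Leaving out each library gave ranges of -0.30 to 0.24 for Atr, -0.43 to 0.092 for Trp53, -0.32 to 1.20 for Gadd45a, -1.16 to 0.38 for Gadd45g, -3.02 to 0.42 for Bax and -0.996 to 0.80 for Bbc3; the cause was not tested. In limma with the replicate number as a replicate block, the count of genes past the threshold was 0, the smallest adjusted p was 0.980 and 468 genes reached an unadjusted p under 0.05. With the block, the SE was lower for Atm, Gadd45b, Gadd45g and Bbc3 and higher for the other members. Libraries with the same number correlated at 0.260, 0.0348 and 0.142 in their deviations from the group means. Libraries with different numbers correlated at -0.251 to 0.0869. Whether libraries with the same number form pairs was not tested, and the main fit did not take them as pairs. The tests on recovered reads with edgeR and DESeq2 were not run, because the values do not give whole reads. The reads behind each value are therefore unknown.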

Other observations

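Within the wider pathway, some genes that were lowest in control 2 had log2 fold changes that were smaller without that library; they were picked out after their values were seen. Bod1l, which protects stalled replication forks, was at 641, 0 and 1225 in controls and at 1156, 1952 and 2529.8 in E3–E12 diet mice. Its log2 fold change of 4.28 was 1.01 without control 2, and E3–E12 diet 1 lay below control 3 on the deposited scale, whereas all E3–E12 diet libraries were above the controls after rescaling to the same total or quantile normalization. Bod1l is among the genes that the study selected from these libraries. For Chek2, the kinase that Atm activates, the log2 fold change of 2.65 was 0.48 without control 2. Gdf15, a secreted p53 target, went from 2.02 to 0.94 in the same way.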
